A study of Homo sapiens with 3 samples.

Results

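Fibroblast growth factors (FGFs) and their receptors were examined in a human colorectal cancer cell line on 3 expression arrays. The genes are 4 secreted ligands, FGF18, FGF9, FGF19 and FGF20, and the 4 receptor genes FGFR1, FGFR2, FGFR3 and FGFR4, which makes 8 of the 19775 genes with a usable probe set. Every probe set that the platform annotation pairs with exactly 1 of these symbols was taken, which gave 34 probe sets. FGF18 led the choice of this family because of its ratio on these arrays, so the ratios below are descriptions and none of them is tested.

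The LATS2 array profiled cells overexpressing the full-length form of LATS2, a kinase at the core of Hippo signalling, from a viral vector. The LATS2N array profiled cells overexpressing only its residues 1 to 625, a fragment without the C-terminal kinase domain, in the same way. The EV array profiled cells that received the empty virus. All groups share the parental line, viral infection and medium with 10% serum, and the labels do not say whether a pool or 1 clone was used. The sample labels name the line SW620, an established line from a colorectal cancer metastasis, whereas the design text of the series names SW480, and which of them is right is not settled here. Each group has 1 array, so no difference has a replicate check, an SD or a p-value.

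FGFs are secreted proteins that bind receptor tyrosine kinases together with heparan sulfate on the cell surface, and the active receptors signal through adaptor proteins to RAS, MAP kinase and ETS family transcription factors. Most FGFs act on nearby cells, while FGF19 is a gut hormone that acts on the liver with the co-receptor beta-Klotho. FGF18 and FGF20 are known targets of beta-catenin and TCF, which are constitutively active in most colorectal cancers. Sprouty proteins and the phosphatase DUSP6 are induced by the pathway and restrain it.

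Signals are MAS5 values on a linear scale, scaled by the authors to one common level per array. Signals were raised to a floor of 50.5, the median over all arrays, before any ratio was formed, and a gene was called higher or lower when the ratio of its floored signals reached 2-fold. A gene is represented by its brightest probe set unless stated otherwise. Signals of different probe sets are not comparable with each other, so only arrays are compared within a probe set. Across all genes 127 were called higher and 111 lower on LATS2 than on EV, a split that became 97 and 139 when each array was centred on its median signal above the floor. Of 12 colorectal epithelial markers, 11 were above the floor on LATS2, 11 on LATS2N and 10 on EV, and none was called. The keratin gene KRT8 read 33588 on LATS2, 33065 on LATS2N and 30042 on EV, whereas the E-cadherin gene CDH1, named after its value was seen, read 2792 on LATS2, 3567 on LATS2N and 4421 on EV. The median log2 ratio of these markers was 0.05 on LATS2 and 0.04 on LATS2N against EV. Markers of other cell types summed to 1253 on LATS2, 1297 on LATS2N and 1119 on EV. Such a sum is weighted to the brightest probe sets and hides members that moved in opposite directions. The genes PTPRC, CD3E, COL1A2, COL3A1, PDGFRB and VWF, 6 of the 12, lay below the floor on all arrays. Of that list 1 was called on LATS2 against EV, where 1.8% of all genes were. It was the smooth muscle actin gene ACTA2, which read 103 on LATS2, 100.02 on LATS2N and 46.7 on EV, so the floor set its EV value. DES, also of muscle, read 51.3 on LATS2, 95.1 on LATS2N and 57.5 on EV. CD14, of blood, read 93.2 on LATS2, 48.4 on LATS2N and 73.5 on EV. The collagen gene COL1A1 read 596 on LATS2, 607 on LATS2N and 325 on EV, above EV by 1.83-fold and 1.87-fold. PECAM1 and ALB, of endothelium and liver, were instead below EV on both constructs, PECAM1 by 1.67-fold and 1.55-fold and ALB by 1.38-fold and 1.52-fold for LATS2 and LATS2N. The part of these markers in the results below was not tested.

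The promoter windows of FGF18 and FGFR3 are shown first, since these were the members with the highest ratios on LATS2 against EV and both have a RefSeq window. Each runs 5′ to 3′ from 250 bases before the gene's start to 50 bases after it. Both are on the plus strand of GRCh38.p14, FGF18 at chr5:171419397-171419696 and FGFR3 at chr4:1793043-1793342. Capitals mark matches to the TCF/LEF motif, searched on both strands as the letters CTTTGAA, the letters CTTTGAT, the letters CTTTGTA and the letters CTTTGTT.
FGF18: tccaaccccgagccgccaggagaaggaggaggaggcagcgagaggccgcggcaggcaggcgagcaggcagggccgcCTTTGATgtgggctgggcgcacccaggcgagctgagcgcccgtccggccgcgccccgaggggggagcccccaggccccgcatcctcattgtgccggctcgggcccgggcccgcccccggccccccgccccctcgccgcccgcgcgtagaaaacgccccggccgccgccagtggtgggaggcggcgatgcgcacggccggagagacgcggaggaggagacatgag
FGFR3: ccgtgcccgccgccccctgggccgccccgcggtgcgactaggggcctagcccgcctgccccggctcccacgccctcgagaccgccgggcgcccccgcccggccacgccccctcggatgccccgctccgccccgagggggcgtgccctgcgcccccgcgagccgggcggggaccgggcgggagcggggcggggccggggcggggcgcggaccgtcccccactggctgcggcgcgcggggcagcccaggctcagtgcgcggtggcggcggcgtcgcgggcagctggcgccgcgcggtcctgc
The FGF18 window holds 1 match, CTTTGAT on the plus strand with its first base at -174, and the FGFR3 window holds none. The TCF/LEF letters occur in 13.8% of 35114 promoter windows of this length. In all, 9 windows of 4 members, FGF18, FGFR2, FGFR3 and FGFR4, were found in the table, and the letters occur in 2 of them, the other being 1 of 5 windows of FGFR2. The TEAD motif GGAATG, the site of the transcription factors that the Hippo pathway acts on through YAP and TAZ, occurs in neither printed window, in 3 of the 9 member windows (1 of FGFR4 and 2 of FGFR2) and in 14.0% of all windows. Both windows are rich in CpG, with 38 sites for FGF18 and 51 for FGFR3, against a median of 14 over all windows. A match to these letters is a description of the sequence and does not show binding.

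Of the 34 probe sets, 18 were above the floor on all 3 arrays, 2 on some arrays and 14 on none. The 14 at the floor were 9 of the 11 for FGFR2, 2 of the 6 for FGF18, 2 of the 4 for FGFR4 and 1 of the 2 for FGFR3. Each of the 8 genes still had at least 1 probe set above the floor on every array.

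**Figure D1:**
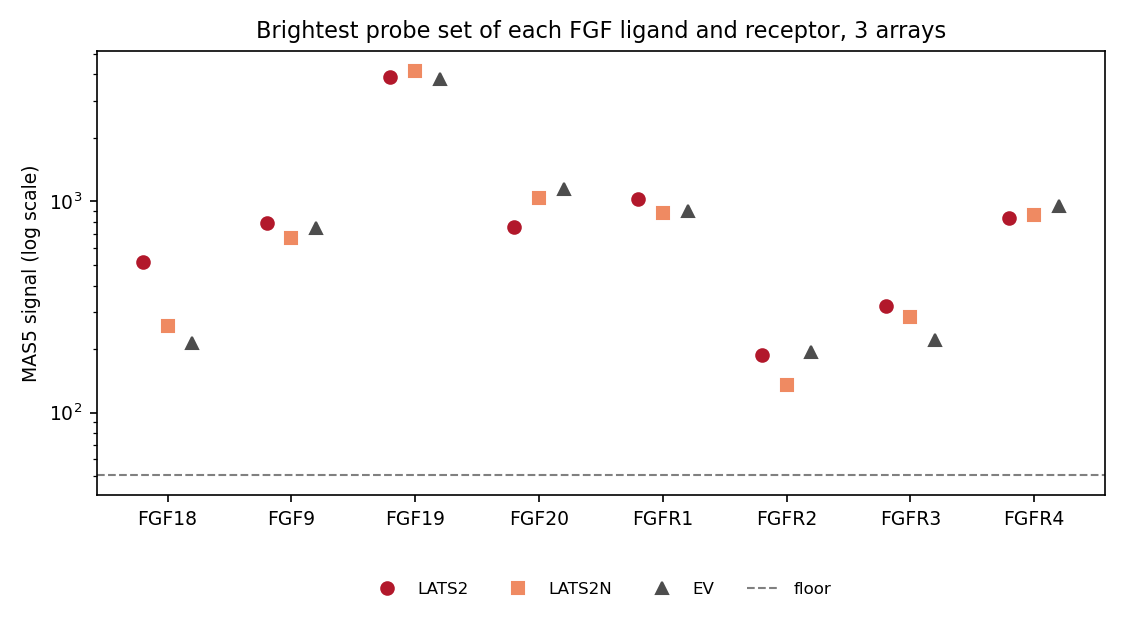
MAS5 signal (log scale) of the brightest probe set of each FGF ligand and receptor on the LATS2, LATS2N and EV arrays, 1 point per array, with the floor of 50.5 as a dashed line. Points are to be compared within a gene only; FGF18 is highest on LATS2 and FGF20 is lowest there.

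FGF18 was the only member called on LATS2 against EV, at the 2-fold size at which 1.8% of 13186 genes were called in either direction and 0.963% were called higher. Its brightest probe set, 231382_at, read 515 on LATS2, 256 on LATS2N and 214 on EV. The LATS2 array stood apart from the other arrays, which lay close together. The ratio of LATS2 to EV was 2.40-fold (log2 1.26), the 49th highest of the genes compared, and that of LATS2N to EV was 1.20-fold (log2 0.26). For scale, pairs of probe sets for 1 gene whose dimmer signal lay between 200 and 500 gave a robust SD of 0.27 per probe set. This SD, for the log2 ratio of LATS2 to EV, is smaller than that of the differences within pairs. It leaves out any difference between cultures. RNA was pooled over all cells of a culture, so more cells with FGF18 RNA and more FGF18 RNA per cell cannot be told apart. FGF18 was chosen from this contrast, so neither its rank nor its size is evidence for an effect.

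The 3 other probe sets of FGF18 above the floor also read higher on LATS2 than on EV, with smaller ratios. Probe set 211485_s_at read 234 on LATS2, 141 on LATS2N and 115 on EV, a ratio of 2.03-fold for LATS2 over EV. By the manufacturer's naming, the suffix _x_at marks probe sets whose probes may also match other transcripts. Of these, 206987_x_at read 246 on LATS2, 152 on LATS2N and 193 on EV, and 211029_x_at read 234 on LATS2, 176 on LATS2N and 172 on EV. Their LATS2 signals were 1.27-fold and 1.37-fold above EV, short of the call. All 4 usable probe sets were therefore higher on LATS2 than on EV, with log2 ratios from 0.35 to 1.26 and a median of 0.73. Among the 586 genes with 4 such probe sets, 9.73% had all 4 higher on LATS2 than on EV. FGF18 was chosen from this contrast and its probe sets share the same arrays, so their shared direction is not evidence for an effect.

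On the LATS2N array, 3 of the 4 usable FGF18 probe sets read above EV and 206987_x_at read below it, with log2 ratios from -0.34 to 0.29. None of the 8 members was called on LATS2N against EV, where 1.51% of 13245 genes were called. The probe sets 206986_at and 214284_s_at stayed under the floor on all arrays, where readings have no order. With both of them counted, the median over the 6 probe sets gave a log2 ratio of 0.40 for LATS2 against EV, and FGF18 was then not called.

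**Figure D2:**
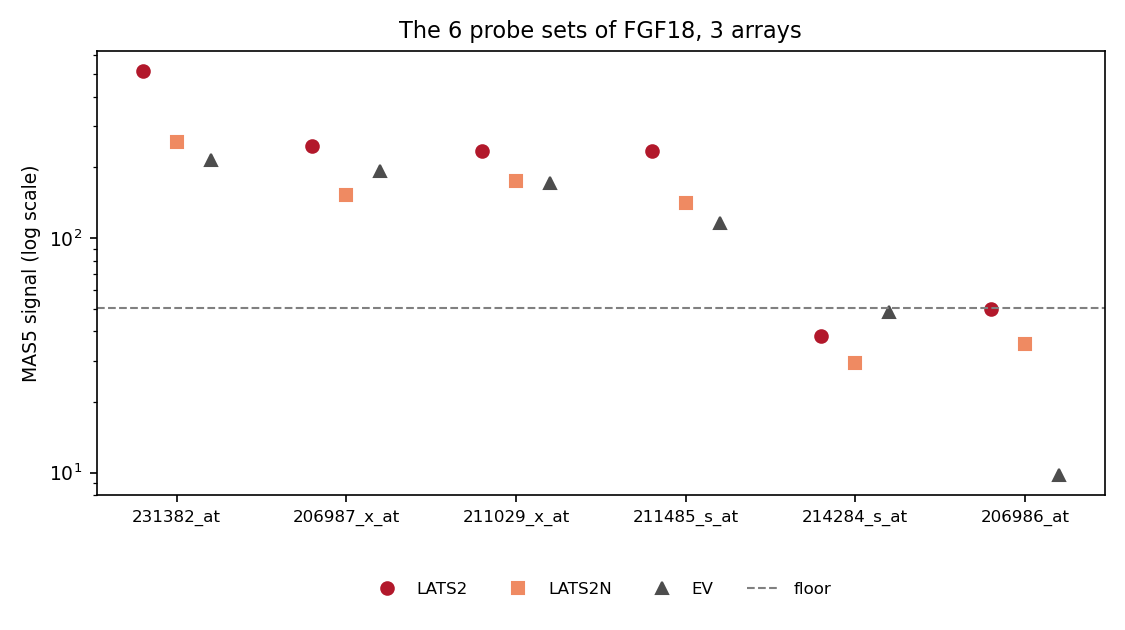
MAS5 signal (log scale) of the 6 probe sets of FGF18 on the LATS2, LATS2N and EV arrays, with the floor of 50.5 dashed. In the 4 probe sets above the floor the LATS2 array is the highest, at 234 to 515; the other 2 probe sets lie under the floor.

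Set against the fragment, FGF18 on the LATS2 array was 2.01-fold higher than on LATS2N (log2 1.01), the only member called in a comparison where 1.59% of 13175 genes were called and 0.592% were called higher. This value sits at the edge of the call and fell to 0.98 after quantile normalisation and 0.96 after centring, below the 2-fold line. All 4 usable probe sets were higher on LATS2 than on LATS2N, with log2 ratios from 0.42 to 1.01, which was also true of 13.1% of genes with 4 usable probe sets. The comparison with LATS2N uses the same LATS2 array as the comparison with EV, so it does not repeat the LATS2 measurement. Here too FGF18 was chosen from these arrays, so the shared direction of its probe sets is not evidence for an effect.

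The 18S ribosomal RNA control probe sets had medians over 3 probe sets of 6632 on LATS2, 10612 on LATS2N and 17278 on EV. This was opposite to the order of the brightest FGF18 probe set, whose LATS2N and EV signals lay close together. Probe set 206987_x_at of FGF18 had another order, with 152 on LATS2N and 193 on EV. The part of the 18S signals in the FGF18 result was not tested. The ratio of 3-prime to 5-prime signal for GAPDH was 0.94 on LATS2, 0.96 on LATS2N and 1.02 on EV, and that for the actin control was 1.74 on LATS2, 1.85 on LATS2N and 1.68 on EV.

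FGF20, a paracrine ligand of the FGF9 subfamily, had the lowest ratio of the members on LATS2 against EV. Its single probe set read 760 on LATS2, 1040.1 on LATS2N and 1143 on EV. LATS2 was the low array, and LATS2N lay nearer to EV. The ratio of LATS2 to EV was 1.51-fold lower (log2 -0.59), short of the 2-fold call but past 1.5-fold, a size that 4.41% of all genes reached in the lower direction. The log2 ratio was -0.14 for LATS2N against EV and -0.45 for LATS2 against LATS2N. FGF18 and FGF20, both known from other work as beta-catenin targets, thus lay on opposite sides of EV on the LATS2 array.

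FGF19, the ileal hormone that restrains bile acid synthesis in the liver, differed little between the arrays. It read 3879.7 on LATS2, 4153 on LATS2N and 3792 on EV, log2 ratios of 0.03 and 0.13 against EV. Of the fixed bile acid genes only FABP6, an ileal bile acid-binding protein, was above the floor, at 432 on LATS2, 424 on LATS2N and 360 on EV. The other 6 with a probe set, including the bile acid transporters SLC10A2 and SLC51A, read below the floor on all arrays.

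FGF9, a ligand for the mesenchymal splice forms of the receptors, also differed little. Its brighter probe set, 206404_at, read 787 on LATS2, 669 on LATS2N and 753 on EV, and the dimmer one, 239178_at, read 200.2 on LATS2, 263 on LATS2N and 212 on EV. The probe sets disagreed on LATS2N, which was the lowest array by the first and the highest by the second. Their log2 ratios of LATS2 to EV were 0.06 and -0.08.

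FGFR3, a receptor for FGF18 and FGF9, had the highest ratio of the receptors on both constructs against EV. Probe set 204379_s_at read 319 on LATS2, 285 on LATS2N and 220.4 on EV, so both construct arrays were above EV and close to each other. The ratios were 1.45-fold for LATS2 (log2 0.53) and 1.29-fold for LATS2N (log2 0.37), neither of them called, and the shared EV array enters both. The other FGFR3 probe set was under the floor on all arrays. With it averaged in, the log2 ratio of LATS2 to EV was 0.27.

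FGFR4, the receptor for FGF19, was slightly lower on both constructs in each of its 2 usable probe sets. Probe set 204579_at read 840 on LATS2, 861 on LATS2N and 953 on EV, and 211237_s_at read 294 on LATS2, 290.5 on LATS2N and 331 on EV. The log2 ratios against EV lay between -0.19 and -0.15 for both constructs. Pairs of probe sets for 1 gene gave a robust SD per probe set of 0.18 for LATS2 and 0.16 for LATS2N against EV. Those values hold for dimmer signals between 500 and 2000, as for 204579_at. Between 200 and 500, as for 211237_s_at, they were 0.27 and 0.24. The FGFR4 ratios were of about that size or smaller.

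FGFR1 had 7 probe sets, and they did not share a direction. The brightest, 226705_at, read 1032 on LATS2, 879 on LATS2N and 899 on EV, and the next, 211535_s_at, read 860 on LATS2, 801 on LATS2N and 863 on EV. By these bright probe sets the arrays differed by at most 0.23 in log2 ratio. A pair of dim probe sets went opposite ways on LATS2N. Probe set 210973_s_at read 218 on LATS2, 137 on LATS2N and 286 on EV, 2.09-fold lower on LATS2N than on EV. Probe set 215404_x_at read 89.5 on LATS2, 154 on LATS2N and 63.6 on EV, 2.41-fold higher on LATS2N than on EV. Over the 6 FGFR1 probe sets above the floor on all arrays, the log2 ratio of LATS2N to EV ran from -1.06 to 1.27 with a median of -0.07, while that of LATS2 to EV ran from -0.44 to 0.49 with 3 above and 3 below 0. Which transcript forms each probe set reads is not given in the sources used here.

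FGFR2, whose epithelial and mesenchymal splice forms bind different ligands, was near or under the floor in most of its 11 probe sets. Only 208229_at was above the floor on all arrays, at 187 on LATS2, 135 on LATS2N and 193 on EV. LATS2N was the low array, with a log2 ratio of -0.51 to EV, and LATS2 lay close to EV at -0.05. For the ratio of LATS2N to EV, probe set pairs with dimmer signals between 100 and 200 gave a robust SD of 0.34. No other FGFR2 probe set reached the floor on LATS2N or EV, so the ratio of LATS2N to EV rests on 208229_at. Probe set 208228_s_at read 54.0 on LATS2 and was under the floor on LATS2N and EV. A level of FGFR2 under the floor has no order between arrays.

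**Figure D3:**
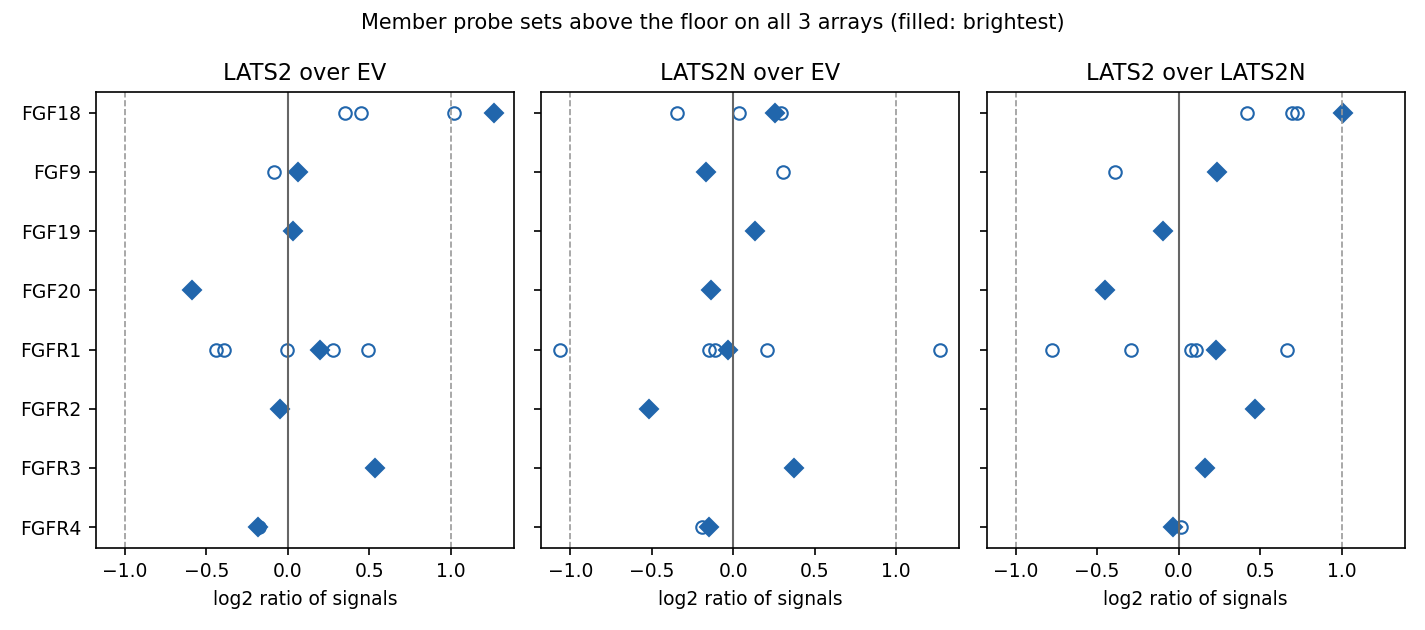
Log2 ratio of signals for the 18 member probe sets above the floor on all 3 arrays, by gene, for LATS2 over EV, LATS2N over EV and LATS2 over LATS2N; filled diamonds are the brightest probe set of a gene, open circles the others, and dashed lines mark 2-fold. FGF18 lies right of 0 in the first and last panel, and the FGFR1 probe sets spread from -1.06 to 1.27 for LATS2N over EV.

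The 8 members had a median log2 ratio of 0.05 for LATS2 against EV, -0.08 for LATS2N against EV and 0.20 for LATS2 against LATS2N, beside medians of 0.03, 0.02 and 0.01 over all genes compared. Apart from FGF18, the members ranged from -0.59 for FGF20 to 0.53 for FGFR3 on LATS2 against EV. At a 1.5-fold size, 2 of 8 were past the line on LATS2 against EV, FGF18 and FGF20, where 10.3% of all genes were. FGF18 was chosen for this ratio, so its place past the line was fixed in advance. Among the members not chosen that way, only FGF20 was past it.

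The remaining ligand genes were mostly under the floor. Of 14 other FGF ligands with a probe set, 8 read below the floor on all arrays, FGF1, FGF2 and FGF10 among them. None was called in any comparison. Of all genes, 1.8% were called on LATS2 against EV, 1.51% on LATS2N against EV and 1.59% on LATS2 against LATS2N. Only 5 reached the floor on LATS2 or EV, with a median log2 ratio of 0.39 that rests on dim signals, and 6 on LATS2N or EV, with a median of 0.12. FGF3, whose gene lies near FGF19, read 1449 on LATS2, 1432 on LATS2N and 1564 on EV. FGF4, FGF5 and FGF6 read below 90 on every array. Among the intracellular FGF homologous factors, which are not secreted, FGF11 read 104 on LATS2, 199.9 on LATS2N and 119.9 on EV. LATS2N was the high array for FGF11, 1.67-fold above EV and short of the call, and LATS2 was 1.92-fold below LATS2N.

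Co-receptors and binding proteins gave no call either, with medians of 0.05 and -0.21 over 5 compared genes for LATS2 and LATS2N against EV. The shares of all genes called in those comparisons were 1.8% and 1.51%. The Klotho co-receptor genes KL and KLB read below the floor on all arrays. FGFBP1, a secreted carrier that releases FGFs from the matrix, read 148 on LATS2, 211 on LATS2N and 282.5 on EV, so both constructs were below EV, LATS2 by 1.91-fold and LATS2N by 1.34-fold. FGFRL1, a receptor-like protein without a kinase domain, read 1135 on LATS2, 1063 on LATS2N and 1099 on EV. FLRT3, a membrane protein that binds FGF receptors, had log2 ratios of 0.22 and -0.21 for LATS2 and LATS2N against EV.

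Heparan sulfate genes held larger ratios in both directions. Of 25 fixed genes 24 had a probe set, 16 were compared, and 8 had a ratio above 0 and 8 below 0 on LATS2 against EV, with a median of -0.04 and none called. The median on LATS2N against EV was 0.12, also with none called. Over all genes 1.8% were called on LATS2 against EV and 1.51% on LATS2N against EV. SDC4, the cell surface proteoglycan syndecan 4, read 2749 on LATS2, 5961 on LATS2N and 5385 on EV. LATS2 was the low array, 1.96-fold below EV and 2.17-fold below LATS2N. SDC4 was the only gene of the list called on LATS2 against LATS2N, where 1.59% of all genes were. GLCE, the epimerase that shapes the sulfation of heparan sulfate, read 614 on LATS2, 372 on LATS2N and 309.9 on EV, 1.98-fold higher on LATS2 than on EV. The glypican gene GPC4 read 129 on LATS2, 83.2 on LATS2N and 65.2 on EV, also 1.98-fold higher. GLCE and GPC4 are outside the rule for named genes and were picked with their values known, as the highest of the list on LATS2 against EV. GPC4 is dim on EV, where probe set pairs with dimmer signals between 50 and 100 gave a robust SD of 0.44. SDC3, also outside the rule, read 236 on LATS2, 267 on LATS2N and 419 on EV, lower on both constructs. SULF2, an extracellular enzyme that removes sulfate from heparan sulfate, was 1.33-fold higher on LATS2 (4236) than on EV (3197).

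Adaptors and kinases that carry the receptor signal differed little. Of 24 fixed genes 17 had a usable probe set and the others were not analysed here. None of the 17 was called, where 1.8% of all genes were on LATS2 against EV and 1.51% on LATS2N against EV. No call among 17 genes is close to those shares. The medians were -0.02 and -0.08 for LATS2 and LATS2N against EV. The log2 ratios ranged from -0.34 to 0.24 for LATS2 against EV and from -0.63 to 0.28 for LATS2N against EV. The phosphatase PTPN11, which couples receptors to RAS, had log2 ratios of -0.07 and -0.16, and MAP2K1, the kinase upstream of ERK, -0.02 and 0.07. The bright adaptors SHC1 and CRKL had 0.12 and 0.22 for LATS2 against EV.

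Feedback inhibitors of the pathway also gave no call, with 8 of 11 above 0 on LATS2 against EV, where 54.8% of all genes were, and a median of 0.12. On LATS2N against EV 6 of the 11 were above 0, with a median of 0.03. Calls over all genes made up 1.8% on LATS2 against EV and 1.51% on LATS2N against EV. DUSP6, the phosphatase that inactivates ERK, read 3609 on LATS2, 2569.8 on LATS2N and 2524 on EV, 1.43-fold higher on LATS2. SPRY2, a Sprouty inhibitor, had log2 ratios of 0.12 and 0.10 for LATS2 and LATS2N, DUSP5 had -0.14 and 0.14, and SPRED2 had 0.11 and -0.25. IL17RD, a membrane inhibitor of FGF signalling named after its value was seen, read 852 on LATS2, 781 on LATS2N and 557 on EV, above EV on both constructs.

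Among 12 transcription targets that respond to ERK, ETV1 was the only one called on LATS2 against EV, where 1.8% of all genes were. This ETS factor, which FGF signalling induces in many tissues, read 1181 on LATS2, 639.6 on LATS2N and 471 on EV by the brightest of its 5 probe sets. The order of arrays was that of the brightest FGF18 probe set. It was also the order of FGFR3, GLCE, GPC4, DUSP6 and IL17RD, so it is not particular to ETV1. A link between ETV1 and FGF18 was not tested. ETV1 was 2.51-fold higher on LATS2 than on EV. Its relatives did not follow together: ETV5 read 2736 on LATS2, 2184 on LATS2N and 1948 on EV, whereas ETV4 read 903 on LATS2, 973 on LATS2N and 1210.3 on EV, lower on both constructs. Both relatives were short of the call and were named after their values were seen. The bright targets IER2, IER3, PHLDA1 and MYC had log2 ratios between -0.13 and 0.22 on LATS2 against EV. The list median was 0.13 on LATS2 against EV. On LATS2N against EV it was 0.20, where none was called and 1.51% of all genes were. The splicing regulator ESRP1, which favours the epithelial form of FGFR2, read 4091 on LATS2, 3600.0 on LATS2N and 3286 on EV, and RBFOX2 and PTBP1 had log2 ratios of 0.22 and 0.12 for LATS2 against EV.

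**Figure D4:**
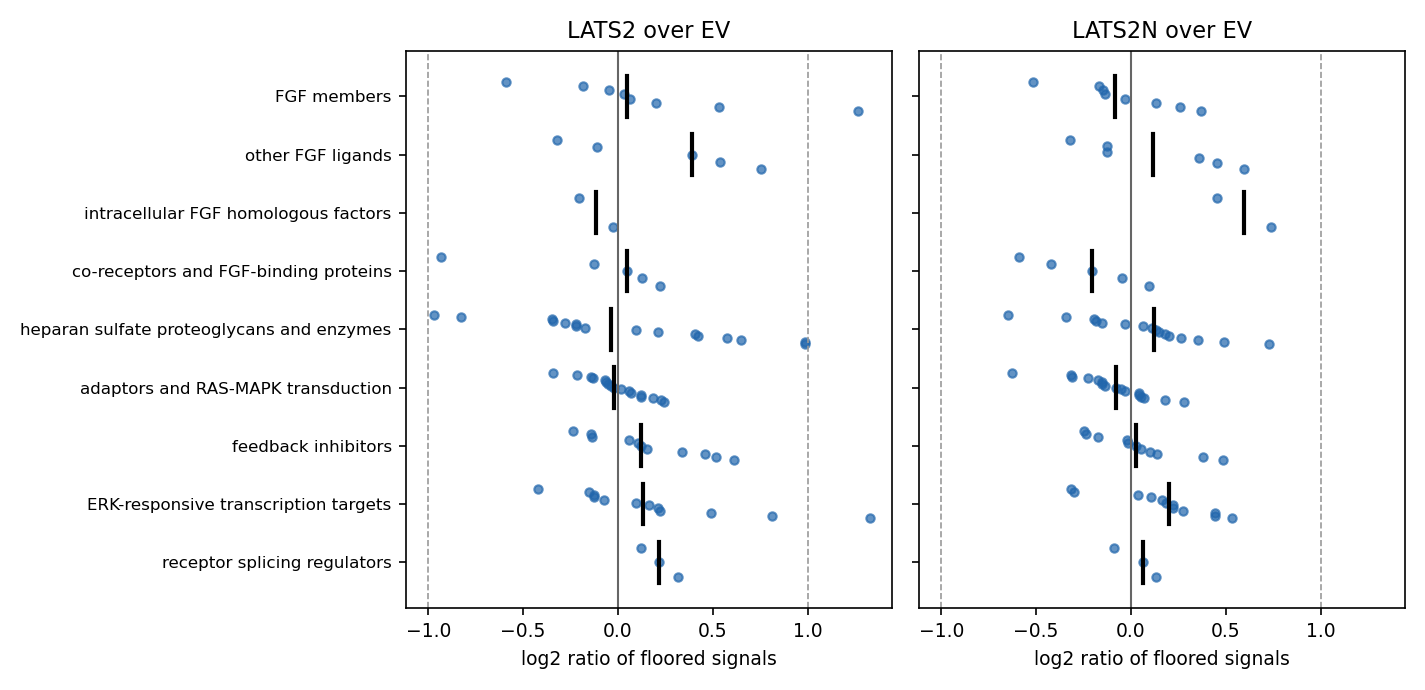
Log2 ratio of floored signals for LATS2 over EV and LATS2N over EV, 1 point per gene that reached the floor, for the FGF members and the lists of their pathway (the Wnt, bile acid and cell type marker lists are not drawn); black bars are list medians and dashed lines mark 2-fold. Among the genes drawn, FGF18 and ETV1 are the points right of the 2-fold line for LATS2 over EV, and no point passes it for LATS2N over EV.

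Other Wnt targets were set beside FGF18 because it is one. Of 21 with a probe set, 19 were compared on LATS2 against EV, and 1 was called higher, the secreted antagonist DKK4, and 1 lower, the receptor gene TNFRSF19. Over all genes 1.8% were called in either direction and 0.963% were called higher. The list median was 0.05, beside 0.03 over all genes. DKK4 read 15957 on LATS2, 9087 on LATS2N and 7523 on EV, in the same order of arrays as the brightest FGF18 probe set. APCDD1 and BMP4 shared that order, so it is not particular to DKK4. A link between DKK4 and FGF18 was not tested. APCDD1, SOX4 and BMP4, other bright targets, had log2 ratios of 0.23, -0.16 and 0.29.

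The genes whose pair of ratios (LATS2 over EV and LATS2N over EV) lay nearest to that of FGF18, among 11533 other genes above the floor on all 3 arrays, were TMEM171, SLC46A3, STAC, FZD2 and FAM229A. Likeness was the straight-line distance between the pairs of log2 ratios, over 3 arrays that share the EV array, and ran from 0.04 for TMEM171 to 0.13 for FAM229A. TMEM171 read 416 on LATS2, 205 on LATS2N and 175 on EV. FZD2, a Wnt receptor gene, read 131 on LATS2, 62.0 on LATS2N and 56.2 on EV, near the floor on LATS2N and EV.

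**Figure D5:**
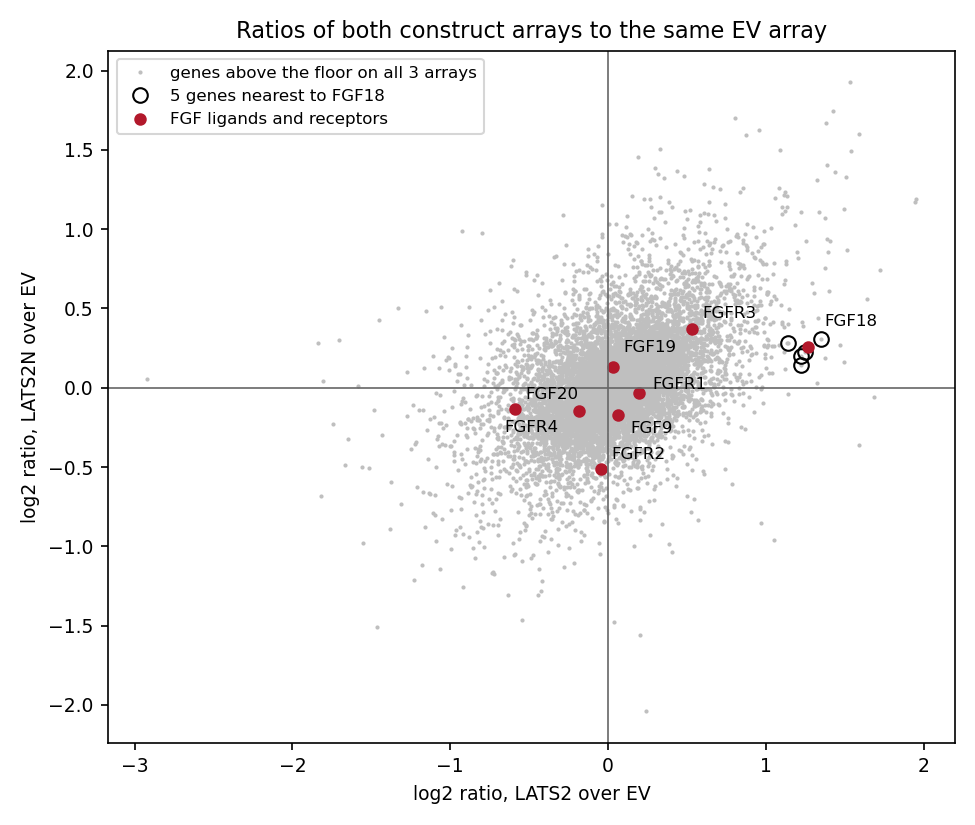
Log2 ratio of LATS2N over EV against that of LATS2 over EV, with grey points for all genes that passed the floor on each of the 3 arrays, red points for the 8 FGF ligands and receptors and open circles for the 5 genes nearest to FGF18. FGF18 lies at 1.26 and 0.26, and the other 7 members lie between -0.59 and 0.53 on the horizontal axis; both axes share the EV array.

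No measured chromosomal neighbour of FGF18 was called. The nearest measured protein-coding genes in RefSeq beside FGF18 are NPM1 and TLX3 on one side and FBXW11 and STK10 on the other. NPM1, an abundant nucleolar protein, had a log2 ratio of 0.13 on LATS2 against EV, FBXW11, a ubiquitin ligase subunit that targets beta-catenin, -0.23, and STK10 0.29, and TLX3 was under the floor. Beside FGF19 lie CCND1 and LTO1 on one side and FGF4 and FGF3 on the other, with log2 ratios of -0.12 for CCND1 and 0.15 for LTO1. Beside FGF9, TNFRSF19 was 2.07-fold lower on LATS2 (343) than on EV (711), while MICU2 on the other side had a log2 ratio of 0.11 and FGF9 itself 0.06. Of the 15 neighbours of FGF18, FGF9, FGF19 and FGFR4 that could be compared on LATS2 against EV, TNFRSF19 was the only one called. In that comparison 1.8% of all genes were called.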

How the data were processed

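Gene expression was measured on Affymetrix human arrays, 1 each for LATS2, LATS2N and EV cells. The authors deposited linear probe set intensity values. These come from MAS5, per the submitters' processing notes, which name neither version nor settings. The mean without the lowest and highest 2% was 500.1 on each array, so each had been scaled to 1 target. No further normalisation was applied. Of 54675 probe sets, 62 are controls, 41091 have 1 symbol, 1801 several and 11721 none in the table used. Symbols were updated through gene identifiers to RefSeq (GRCh38.p14), which matched 41037. Promoter windows are from RefSeq.

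The floor, the 2-fold call, brightest probe sets, gene lists and alternatives follow the report. Named genes are all probe sets of the 8 members, called genes and the 4 brightest others of each list, the 5 genes nearest to FGF18 and 2 neighbours per side of FGF18, FGF9, FGF19 and FGFR4. Members and lists were chosen with earlier results of these data known. Ratios were computed in Python 3.11.15 with pandas 2.3.3 and numpy 2.4.6. With 1 array per group, the number of arrays limits the precision.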

Additional observations from a re-analysis of the deposited data

How the results depend on the processing

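No paired analysis was possible because each group has 1 array. The order below is LATS2 against EV, LATS2N against EV, and LATS2 against LATS2N. FGF18 had main log2 ratios of 1.26, 0.26 and 1.01. With the floor at the 75th percentile they were 0.52, 0 and 0.52, because signals under it are set to it. The median over all 6 probe sets gave 0.40, 0.017 and 0.55, and the median over those above the floor on any array, chosen after seeing the data, gave 0.73 for LATS2 against EV and 0.71 for LATS2 against LATS2N. In these 3 settings and at a 3-fold call, 0 members were called in every comparison, and at a 1.5-fold call 2 were called on LATS2 against EV. Quantile normalisation and centring each left 0 members called for LATS2 against LATS2N, at FGF18 ratios of 0.98 and 0.96. The number of genes called, 238, 200 and 210, was 1763, 1650 and 1723 with a floor at the 25th percentile, 3711, 3498 and 3653 when no floor was set, 28, 1 and 20 with the floor at the 75th percentile, and 123, 105 and 109 with the median over probe sets. It was 1354, 1077 and 1231 at a 1.5-fold call and 25, 14 and 23 at a 3-fold call. The share called higher on LATS2 against EV was 41.1% after centring, against 53.4%. The median of the other FGF ligands on LATS2 against EV, 0.39, turned to -0.02 with the lower floor and -0.11 with the higher one, and that on LATS2N against EV, 0.12, turned to -0.31 and -0.13 with those floors and to -0.16 with none. The median of the splicing regulators turned from 0.18 to -0.27 on LATS2 against LATS2N without _x_at and _s_at probe sets, and from 0.22 to -0.06 on LATS2 against EV with the median over probe sets above the floor. No called gene named in the text changed direction. Signals near the floor limit FGFR2, most other FGF ligands and the 2 dim FGF18 probe sets. With the floor at the 75th percentile, the FGFR3 log2 ratios of LATS2 and LATS2N to EV were both 0. FGFR3 had no value without _x_at and _s_at probe sets, since both of its probe sets are _s_at.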
